A study of Mus musculus with 10 samples.

Results

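Polycomb group proteins form chromatin complexes that keep developmental genes silent. The genes described here encode the subunits of Polycomb repressive complexes 1 and 2 (PRC1 and PRC2) and of the BAP1-ASXL complex. They were chosen as a list of 37 symbols, of 55385 gene identifiers in the tables. Symbols were matched through GENCODE M21, and all 37 were found. The list was drawn up with results of the same comparison known. Its values in that comparison are therefore given as a description, without p-values.

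RNA-seq was performed on cultured, untreated WT31 mouse melanoma cells and on the subline WT31_P5IV, with 5 libraries per group. WT31 comes from a mouse with the genotype Tyr∷NrasQ61K/°; INK4a−/−, in which the tyrosinase promoter directs mutant NRAS to melanocytes, and both groups share this origin. WT31_P5IV was obtained by intravenous injection and recovery from the liver, repeated 5 times, so that each group is a single line and the comparison is between these lines. The labels name the libraries biological replicates without saying that cultures were separate, and the spread between them may in part be technical.

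PRC2 places methyl groups on lysine 27 of histone H3. PRC1 attaches ubiquitin to histone H2A, and BAP1 together with an ASXL protein removes it again. Most positions in these complexes can be filled by one of several paralogs, and the choice decides whether a canonical, chromobox-containing PRC1 or a variant PRC1 with RYBP or YAF2 is built. In the melanocytic lineage EZH2 is known as a driver of melanoma growth and BAP1 as a tumor suppressor.

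The libraries held 24255389 to 25750639 estimated counts each, and 13620 genes passed the filter on low counts. Melanocyte markers were abundant in both lines, led by Dct, which encodes dopachrome tautomerase, with 5893 ± 221 CPM in WT31 and 10233 ± 659 CPM in WT31_P5IV (mean ± SD, n = 5 here and below). CPM are counts relative to the scaled library size. Of the 8 markers 3 were called higher and 3 lower in WT31_P5IV by the edgeR test described below. That was 75% of them, against 68.5% of all tested genes. Pmel, which encodes a melanosome matrix protein, rose from 1859.9 ± 135 to 4329.5 ± 242 CPM (log2 fold change of 1.22, SE 0.055, adjusted p = 1.07e-10), whereas Tyrp1, which encodes a melanin synthesis enzyme, fell from 3041 ± 49.7 to 1564 ± 71.9 CPM (log2 fold change of -0.96, SE 0.039, adjusted p = 3.50e-11). S100b (log2 fold change of -0.46, SE 0.049, adjusted p = 9.53e-07) and Sox10 (log2 fold change of -0.14, SE 0.054, adjusted p = 0.0373) were also lower. Most markers of liver and blood cells were at or near 0. Over 8 hepatocyte genes the summed level was 0.303 to 0.588 CPM in WT31 and 0.442 to 1.30 CPM in WT31_P5IV, with Ttr, the most abundant, averaging 0.392 ± 0.137 and 0.468 ± 0.120 CPM, Serpina1a at 0 in all libraries and Alb at no more than 9 counts. Ptprc, which encodes the pan-leukocyte antigen CD45, had at most 2 counts per library. Over 8 leukocyte and macrophage genes the sum was 4.92 to 6.76 CPM in WT31 and 4.46 to 6.32 CPM in WT31_P5IV. The genes of that list that passed the filter moved in opposite directions: Cd68, a lysosomal macrophage marker, rose from 1.37 ± 0.455 to 3.73 ± 0.638 CPM (log2 fold change of 1.45, SE 0.20, adjusted p = 1.16e-05), and Lyz2, which encodes lysozyme, fell from 4.33 ± 0.530 to 1.08 ± 0.156 CPM (log2 fold change of -2.004, SE 0.13, adjusted p = 7.64e-09). The endothelial sum was 0.707 to 1.22 CPM in WT31 and 1.07 to 1.93 CPM in WT31_P5IV, and that of stellate cell and fibroblast genes 2.00 to 2.66 CPM in WT31 and 3.22 to 3.66 CPM in WT31_P5IV. The most abundant endothelial gene, Fcgr2b, rose from 0.617 ± 0.167 to 1.08 ± 0.265 CPM (log2 fold change of 0.80, SE 0.23, adjusted p = 0.00574). In the last of these lists the most abundant gene, Col1a1, which encodes a collagen chain, also rose from 0.868 ± 0.2005 to 1.73 ± 0.233 CPM (log2 fold change of 1.00, SE 0.18, adjusted p = 1.56e-04), and Acta2, which encodes smooth muscle actin, rose from 0.275 ± 0.164 to 0.758 ± 0.0939 CPM (log2 fold change of 1.46, SE 0.32, adjusted p = 9.69e-04). Pdgfrb, the remaining tested gene of that list, did not rise: its estimate was -0.18 (SE 0.32) and it was not called. Among the genes of the list that failed the filter, Des, Lrat and Dcn had lower means in WT31_P5IV, and Lum and Reln had higher ones. The part of all the markers above in the values of the members was not tested.

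The WT31 libraries differed among themselves with transcript length, and replicates 2 and 3 lay together at one end. Genes whose exons cover more than 8000 bases deviated in them from the WT31 mean by a median of 0.10 and 0.082 on the log2 scale, and genes under 2000 bases by -0.086 and -0.071. Replicate 5 deviated about as far in the opposite direction, by -0.089 for the long genes and 0.085 for the short ones. Several Polycomb genes have long transcripts, and results without replicates 2 and 3 together, or without a single library, stand beside called members where they end the call or move the value by over 1.5 times, and beside members called only in that case. Mitochondrial transcripts took 6.203% to 7.175% of the counts in WT31 and 10.8% to 12.9% in WT31_P5IV, and the median fold change over all genes was shifted by -0.17 on the scale of log2(TPM + 0.1), where TPM give the level per transcript length. Fold changes of members on the TPM scale below include this shift.

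Promoter sequences are shown for 4 genes: Scml2 and Cbx7, the members that were more than 2-fold higher in WT31_P5IV, and Rnf2 and Ring1, paralogs that moved in opposite directions. Each is the RefSeq window from 250 bases before to 50 bases after the transcription start on GRCm38.p6, written 5′ to 3′ on the strand of the gene, with CG dinucleotides in capitals. Scml2 lies at chrX:161162500-161162799 (+ strand), Cbx7 at chr15:79932597-79932896 (- strand), Rnf2 at chr1:151500942-151501241 (- strand) and Ring1 at chr17:34024631-34024930 (- strand). In GENCODE M21 Scml2 begins at chrX:161117193 and Cbx7 at chr15:79971119, so that their windows belong to starts inside the gene. The windows of Rnf2 and Ring1 span the start of the gene, and the 4 windows are therefore of unlike starts.
Scml2: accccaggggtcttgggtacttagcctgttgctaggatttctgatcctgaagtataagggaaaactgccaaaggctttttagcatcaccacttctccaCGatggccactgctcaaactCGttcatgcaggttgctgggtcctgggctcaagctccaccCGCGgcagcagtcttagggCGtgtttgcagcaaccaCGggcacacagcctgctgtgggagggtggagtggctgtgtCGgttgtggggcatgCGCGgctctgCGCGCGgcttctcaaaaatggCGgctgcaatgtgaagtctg
Cbx7: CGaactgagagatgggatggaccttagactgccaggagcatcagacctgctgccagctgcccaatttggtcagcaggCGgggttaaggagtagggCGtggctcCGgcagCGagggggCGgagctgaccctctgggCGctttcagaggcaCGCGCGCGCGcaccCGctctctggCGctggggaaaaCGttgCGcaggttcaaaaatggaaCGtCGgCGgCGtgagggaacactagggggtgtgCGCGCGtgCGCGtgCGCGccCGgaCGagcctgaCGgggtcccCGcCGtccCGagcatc
Rnf2: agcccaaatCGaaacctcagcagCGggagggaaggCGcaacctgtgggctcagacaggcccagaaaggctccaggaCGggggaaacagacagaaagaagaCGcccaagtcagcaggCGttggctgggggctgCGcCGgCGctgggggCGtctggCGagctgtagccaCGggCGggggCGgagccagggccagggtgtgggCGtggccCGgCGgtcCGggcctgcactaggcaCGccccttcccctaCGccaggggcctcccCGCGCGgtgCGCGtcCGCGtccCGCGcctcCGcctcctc
Ring1: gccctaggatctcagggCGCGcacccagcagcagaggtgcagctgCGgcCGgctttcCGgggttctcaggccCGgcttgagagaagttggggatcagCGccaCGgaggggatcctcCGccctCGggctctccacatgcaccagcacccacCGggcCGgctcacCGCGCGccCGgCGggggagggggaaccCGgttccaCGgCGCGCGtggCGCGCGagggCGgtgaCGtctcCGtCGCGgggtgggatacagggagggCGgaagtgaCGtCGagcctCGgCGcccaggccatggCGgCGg

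CG-rich promoters are the typical place of Polycomb complexes in mammals, since KDM2B and the Polycomb-like proteins bind unmethylated CG sequence. The Scml2 window held 13 CG dinucleotides, the fewest of the 4, followed by Rnf2 with 30, Cbx7 with 33 and Ring1 with 37. Over 44 windows of the 31 member genes that matched in RefSeq the median was 23, with a range of 0 to 54, and over all 32851 windows of this length it was 7. Both strands of the windows were searched for 5 motifs. CCATNTT, the core of the YY1 site, was present in the windows of Scml2 and Cbx7, in those of 11 member genes in all, and in 16.1% of all windows. The E-box CACGTG was found for 9 member genes and in 7.15% of all windows. Of the E2F sites, TTTGGCGC was found only in the Ezh2 window among the members and in 0.514% of all windows, and TTTCCCGC in those of Phf19 and Suz12 and in 1.07% of all windows. The cyclic AMP response element TGACGTCA occurred in the Cbx8 window and in 1.79% of all windows. The searched letters may overlap with other motifs, and a match is a description of the sequence only.

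The Polycomb genes changed in both directions between the lines. Of the 37 members 35 passed the filter, and the quasi-likelihood test of edgeR (adjusted p under 0.05) called 13 of them higher and 12 lower in WT31_P5IV and left 10 uncalled. Over all tested genes 68.5% were called, 34.6% higher and 33.9% lower. The groups did not overlap for 18 members, with 8 higher and 10 lower, against 54.1% of all tested genes. The median log2 fold change of the members was -0.011, beside 0.010 over all genes, and the median of the absolute values was 0.20 beside 0.30. Past the filter of an at least 2-fold change stood 3 members, Scml2, Cbx7 and Asxl3, where 9.1% of all genes did, 5.42% higher and 3.69% lower. The members that failed the filter on low counts were Scml4, with 1 to 5 counts in WT31 and 1 to 7 in WT31_P5IV, and Sfmbt2, with 0 to 1 count in every library.

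**Figure D1:**
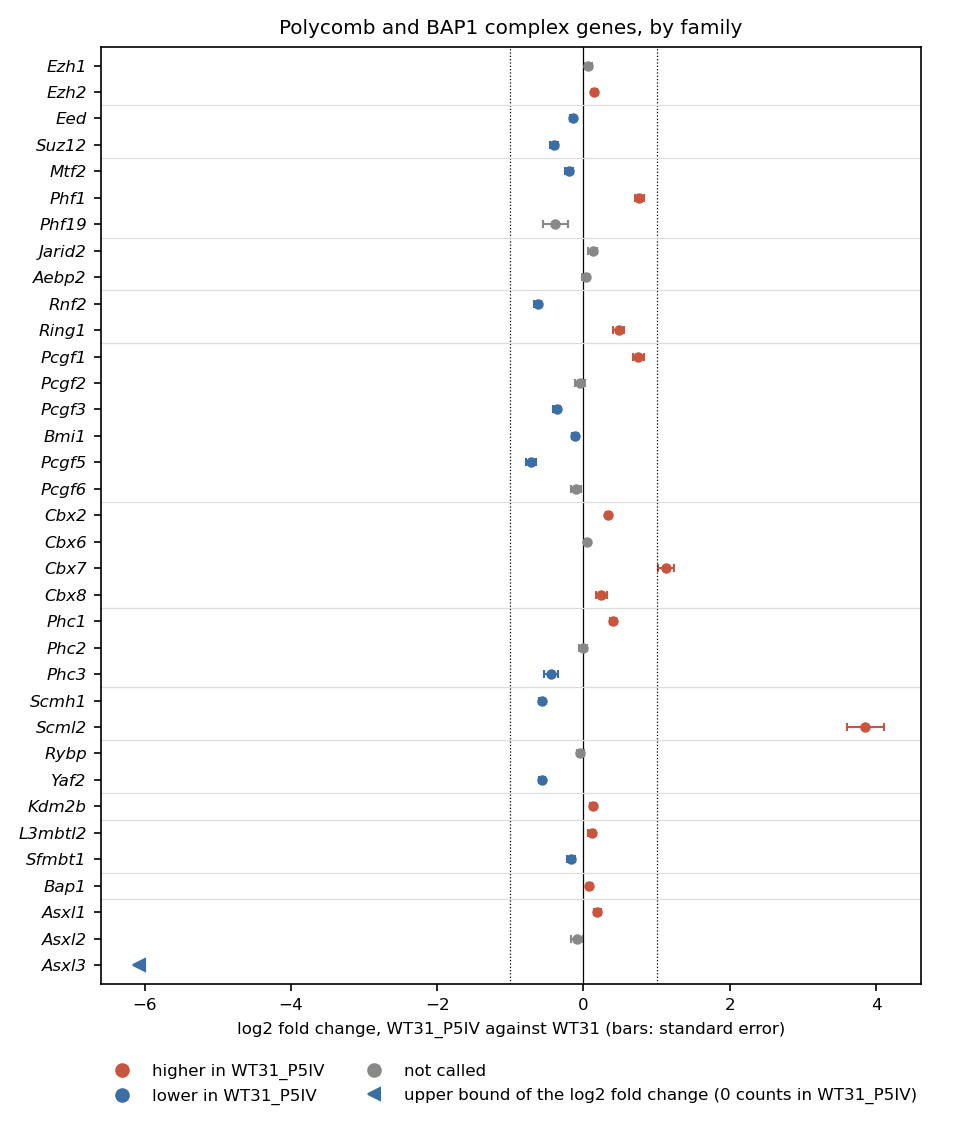
Log2 fold change of WT31_P5IV against WT31 for the 35 members tested, grouped by family. Points are edgeR estimates with their standard error, dotted lines mark a 2-fold change, and the triangle for Asxl3 is a bound because it had 0 counts in WT31_P5IV. Scml2 lies farthest to the right at 3.85, and Rnf2 and Ring1 lie on opposite sides of 0. On the scale of TPM the values of Ezh1, Jarid2, Aebp2, Cbx6, Kdm2b, L3mbtl2 and Bap1 fall below 0 and that of Rybp above it. On log2(TPM + 0.1) the median of all genes is shifted by -0.17.

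Within PRC2 the catalytic subunit and its core partners moved apart. Ezh2, the H3K27 methyltransferase of proliferating cells, measured 125, 128, 126, 125 and 126 CPM in WT31 replicates 1 to 5 and 138, 136, 141, 150.4 and 132 CPM in WT31_P5IV. Every WT31_P5IV library was above every WT31 library, and Ezh2 rose by 0.15 on the log2 scale (SE 0.037), which no longer passed the test without scaling beyond library totals (0.078). Ezh1, the paralog of resting cells, overlapped between the groups, with 21.05 ± 1.096 CPM in WT31 and 21.9 ± 1.11 CPM in WT31_P5IV. Suz12, the scaffold subunit, measured 97.4, 113, 105, 94.8 and 89.9 CPM in WT31 and 74.5, 73.0, 77.3, 78.0 and 76.5 CPM in WT31_P5IV. All WT31_P5IV libraries were below all WT31 libraries, WT31 replicate 2 was the highest, and Suz12 fell by 0.40 on the log2 scale (SE 0.055), with -0.32 without WT31 replicates 2 and 3. Eed, which reads trimethylated H3K27 and stimulates the enzyme, fell from 44.0 to 46.6 CPM in WT31 to 38.9 to 42.8 CPM in WT31_P5IV, a log2 fold change of -0.15 (SE 0.038). Allowing for transcript length with an offset left -0.10 for Eed, which did not pass, and gave 0.29 for Ezh2, which did.

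Per transcript length, Ezh2 stood higher against its core partners in WT31_P5IV. Ezh2 exceeded Suz12 by a TPM ratio of 2.49 ± 0.152 in WT31 and 4.10 ± 0.186 in WT31_P5IV, and the groups did not overlap. The ratio of Ezh2 to Eed was 1.48 ± 0.0748 in WT31 and 1.94 ± 0.135 in WT31_P5IV, also without overlap. Ezh2 made up 91.4 ± 0.445% in WT31 and 92.4 ± 0.656% in WT31_P5IV of the summed TPM of both EZH genes, and here the groups overlapped. Ratios within a library do not depend on library scaling. Proliferation genes, whose levels Ezh2 commonly follows, were higher in WT31_P5IV for 10 of 15, none was lower, and 5 did not pass. Their median was 0.14, and the largest changes were those of Mki67 (log2 fold change of 0.80, SE 0.11, adjusted p = 1.29e-05 by the edgeR test), Mcm2 (log2 fold change of 0.44, SE 0.034, adjusted p = 3.11e-08) and E2f2 (log2 fold change of 0.40, SE 0.048, adjusted p = 3.55e-06). The called share of this list was 66.7%, against 68.5% of all tested genes (34.6% higher and 33.9% lower). The part of the proliferation genes in the Ezh2 value was not tested.

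The accessory subunits that define PRC2.1 and PRC2.2 moved in both directions. Phf1, one of 3 Polycomb-like proteins of PRC2.1 that bind methylated H3K36 and CG-rich DNA, measured 14.1, 12.0, 13.3, 14.0 and 15.2 CPM in WT31 replicates 1 to 5 and 24.2, 23.2, 22.0, 22.7 and 24.1 CPM in WT31_P5IV. All WT31_P5IV libraries were above all WT31 libraries, and Phf1 rose by 0.76 on the log2 scale (SE 0.060). Its paralog Mtf2 fell by 0.20 on the log2 scale (SE 0.056), with 40.1 to 51.4 CPM in WT31 and 37.5 to 39.3 CPM in WT31_P5IV. The ranges did not overlap, although the highest WT31_P5IV library lay within 1 CPM of the lowest WT31 library, and the fall did not pass with an effective-length offset (-0.094). Without WT31 replicates 2 and 3 the value for Mtf2 was -0.13, still called. Phf19, the third of them, measured 1.39 ± 0.115 CPM in WT31 and 1.06 ± 0.242 CPM in WT31_P5IV, with a log2 fold change of -0.39 (SE 0.17) that did not pass. It passed without WT31 replicate 2 (-0.45), without WT31_P5IV replicate 1 (-0.45) and without WT31_P5IV replicate 2 (-0.50), and in 3 other settings of scaling and filter with -0.39 to -0.48. With the effective-length offset Phf19 stood at -0.092 and on log2(TPM + 0.1) at -0.23, and it passed in neither. Phf1 accounted for 29.002 ± 3.58% in WT31 and 41.7 ± 1.28% in WT31_P5IV of the Polycomb-like TPM, and Mtf2 for 68.9 ± 3.56% in WT31 and 56.5 ± 0.722% in WT31_P5IV. Neither share overlapped between the lines, while the sum of the family was close at 31.1 ± 2.101 TPM in WT31 and 32.2 ± 1.18 TPM in WT31_P5IV. Of the words of 31 bases in Phf1 transcripts 32.6% also occur in Cuta, a gene on the opposite strand that encodes a copper tolerance homolog, and Cuta itself stood at a log2 fold change of 0.22, SE 0.061, adjusted p = 0.00621 in edgeR's test. Whether counting used the strand is not given in the sources used here.

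In PRC2.2, Jarid2 and Aebp2 guide the complex to ubiquitylated H2A. Jarid2 measured 29.2 to 34.6 CPM in WT31 and 31.6 to 36.6 CPM in WT31_P5IV, with overlapping groups and 0.13 on the log2 scale (SE 0.060). It passed the test without WT31 replicate 2 (0.15), replicate 3 (0.14) or WT31_P5IV replicate 4 (0.15), and without WT31 replicates 2 and 3 together (0.20), as it did with upper-quartile scaling (0.16). Aebp2 measured 135 ± 10.1 CPM in WT31 and 137 ± 4.42 CPM in WT31_P5IV, with a log2 fold change of 0.029 (SE 0.048). Of 6 further PRC2 partners 5 were tested, 3 fell and none rose: Lcorl, a PRC2.1 cofactor paralog (log2 fold change of -0.26, SE 0.067, adjusted p = 0.00334), and the histone-binding core subunits Rbbp4 (log2 fold change of -0.15, SE 0.031, adjusted p = 6.18e-04) and Rbbp7 (log2 fold change of -0.14, SE 0.031, adjusted p = 8.16e-04), all by edgeR's quasi-likelihood test. The called share of these partners was 60%, against 68.5% of all tested genes.

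In PRC1 the paralogs of the catalytic RING subunit moved in opposite directions. Rnf2, which encodes RING1B, the main E3 ligase for H2A, measured 66.9, 67.0, 68.9, 63.0 and 59.1 CPM in WT31 replicates 1 to 5 and 40.3, 39.5, 42.4, 44.0 and 44.0 CPM in WT31_P5IV. The lowest WT31 library was well above the highest WT31_P5IV library, and Rnf2 fell by 0.63 on the log2 scale (SE 0.049). Ring1, which encodes RING1A and can carry out the same reaction, measured 12.2, 9.84, 9.57, 11.0 and 12.5 CPM in WT31 and 16.8, 15.3, 15.0, 14.6 and 15.4 CPM in WT31_P5IV. Again no WT31 library reached the WT31_P5IV libraries, and Ring1 rose by 0.48 on the log2 scale (SE 0.077). Per length Rnf2 nevertheless stayed the more abundant paralog, with 54.4 ± 5.46 TPM in WT31 and 31.03 ± 2.50 TPM in WT31_P5IV against 10.5 ± 1.48 TPM in WT31 and 13.9 ± 2.26 TPM in WT31_P5IV for Ring1. The share of Ring1 in their sum was 16.3 ± 2.97% in WT31 and 30.9 ± 4.20% in WT31_P5IV, the ratio of Rnf2 to Ring1 was 5.29 ± 1.16 in WT31 and 2.28 ± 0.466 in WT31_P5IV, and neither overlapped. The summed level was 65.0 ± 4.76 TPM in WT31 and 44.9 ± 3.04 TPM in WT31_P5IV. In bulk RNA a lower level in all cells and fewer cells with the transcript cannot be told apart. Rnf2 shares 3.06% of its words with Trmt1l on the opposite strand, and Ring1 shares none.

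The PCGF proteins decide which PRC1 is formed: PCGF2 and BMI1 enter canonical complexes, and PCGF1, PCGF3, PCGF5 and PCGF6 enter variant ones. Bmi1 was the most abundant of them per length, with 104 ± 13.3 TPM in WT31 and 84.0 ± 2.91 TPM in WT31_P5IV, and measured 136 to 152 CPM in WT31 and 127 to 138 CPM in WT31_P5IV. The groups overlapped, and Bmi1 fell by 0.12 on the log2 scale (SE 0.040), which did not pass without WT31 replicates 2 and 3 (-0.088). Pcgf2 measured 40.0 to 50.5 CPM in WT31 and 43.0 to 50.2 CPM in WT31_P5IV and stood at -0.048 on the log2 scale (SE 0.064), with -0.14 and a call when WT31 replicates 2 and 3 were left out. Among the variant subunits Pcgf1 rose and Pcgf3 and Pcgf5 fell. Pcgf1, the partner of BCOR and KDM2B, measured 8.97, 7.83, 8.39, 10.1 and 9.90 CPM in WT31 replicates 1 to 5 and 16.5, 14.7, 16.5, 14.0 and 14.3 CPM in WT31_P5IV. The lowest WT31_P5IV library was above the highest WT31 library, with a log2 fold change of 0.75 (SE 0.079). Pcgf5, which with PCGF3 deposits much of the ubiquitylated H2A outside Polycomb targets, measured 14.2, 15.6, 15.1, 14.1 and 14.4 CPM in WT31 and 7.91, 9.82, 9.89, 9.01 and 8.01 CPM in WT31_P5IV. Here every WT31_P5IV library was lower, and Pcgf5 fell by 0.72 on the log2 scale (SE 0.071). Pcgf3 also fell without overlap, by 0.37 on the log2 scale (SE 0.048), with 94.3 ± 6.795 CPM in WT31 and 73.1 ± 2.03 CPM in WT31_P5IV. Pcgf6, the subunit of the complex with MGA, MAX and L3MBTL2, stood at -0.10 on the log2 scale (SE 0.066) and overlapped. It was called lower on the TPM scale (-0.31) and without scaling beyond library totals (-0.17).

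As shares of the PCGF sum per length, Pcgf1 took 10.4 ± 1.14% in WT31 and 18.7 ± 1.53% in WT31_P5IV, which did not overlap. Bmi1 took 49.0 ± 4.28% in WT31 and 44.9 ± 1.08% in WT31_P5IV and Pcgf2 20.6 ± 3.13% in WT31 and 20.5 ± 1.47% in WT31_P5IV, and both overlapped. Pcgf3 and Pcgf5 lost share without overlap, with 9.31 ± 0.589% in WT31 and 7.37 ± 0.257% in WT31_P5IV for the former and 4.23 ± 0.261% in WT31 and 2.70 ± 0.2005% in WT31_P5IV for the latter. Bmi1 shares 28.2% of its words with Gm5946, which had at most 1 count per library, and Pcgf1 shares 23.1% with Gm8930, which was at 0 in all libraries.

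Pcgf1 lies on chromosome 6, as do Ezh2, Aebp2, Phc1 and Rybp. Over 677 tested genes of that chromosome the median log2 fold change was 0.28 and 76.2% were above 0, the highest values among the chromosomes that hold members. The other medians lay between -0.13 on the X chromosome and 0.084 on chromosome 17. The members on chromosome 6 stood at 0.75 for Pcgf1, 0.41 for Phc1, 0.15 for Ezh2, 0.029 for Aebp2 and -0.044 for Rybp. The part of the chromosome in these values was not tested.

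**Figure D2:**
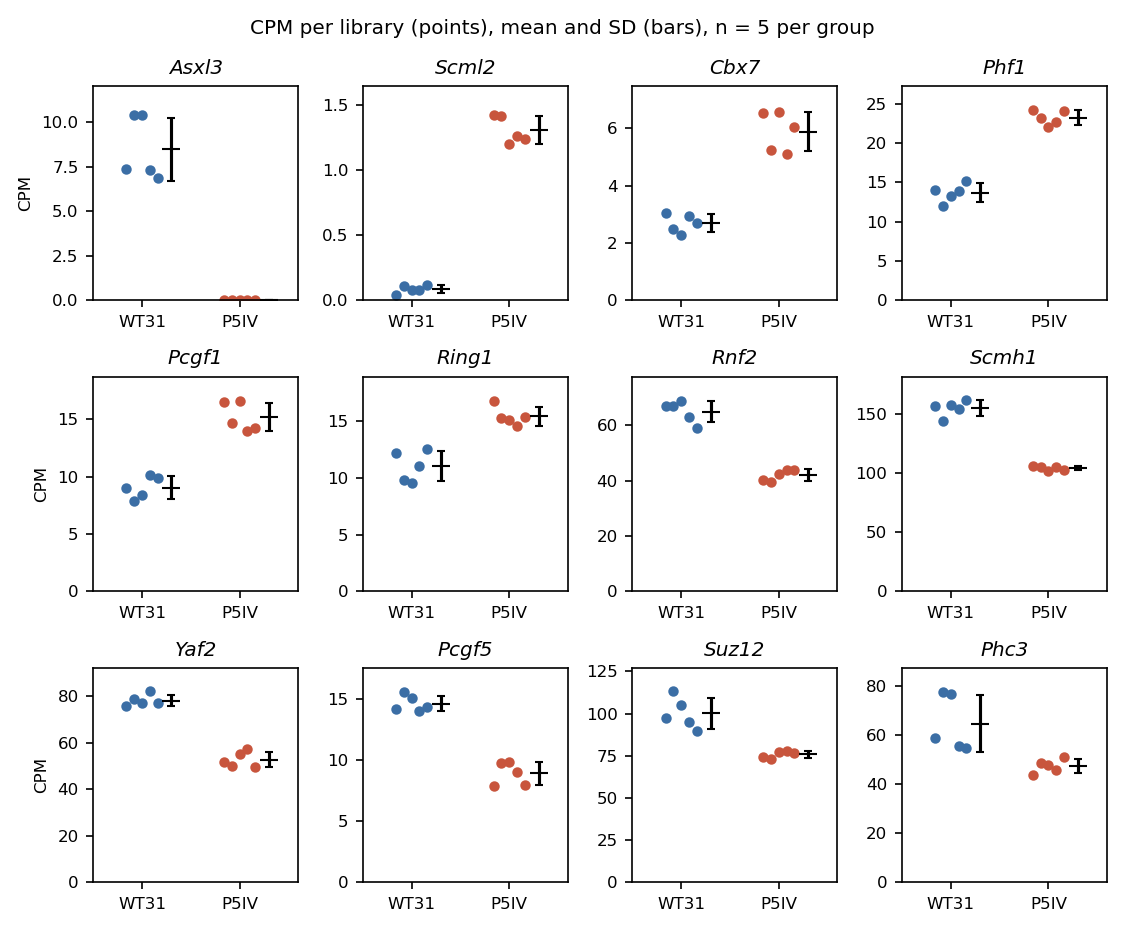
CPM of 12 members in each library, with the mean and SD of the 5 libraries of each group beside the points. The groups do not overlap in any panel. Asxl3 is at 0 in all WT31_P5IV libraries, and WT31 replicates 2 and 3 are the highest points for Asxl3 and Phc3.

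The chromobox proteins anchor canonical PRC1 to trimethylated H3K27, and 3 of the 4 members of this family rose while none fell. Cbx7 (ENSMUSG00000053411.16, GRCm38 chr15:79915807-79971119, - strand), a repressor of the Cdkn2a locus that is often lost in carcinomas, measured 3.06, 2.50, 2.27, 2.95 and 2.69 CPM in WT31 replicates 1 to 5 and 6.52, 5.23, 6.56, 5.10 and 6.03 CPM in WT31_P5IV. All WT31_P5IV libraries were above all WT31 libraries, and the log2 fold change was 1.13 (SE 0.11), past the 2-fold filter. On log2(TPM + 0.1) and log2(TPM + 1) it stood at 0.90 and 0.61, called but under 2-fold. Its exons overlap Apobec3 on the opposite strand, which encodes a cytidine deaminase against retroviruses and stood at a log2 fold change of 1.34, SE 0.11, adjusted p = 8.68e-08 in edgeR's test, although only 1.06% of the words of Cbx7 are shared. Cbx2, which compacts nucleosomes, measured 27.1, 26.8, 27.6, 28.2 and 27.5 CPM in WT31 and 33.6, 35.3, 34.1, 35.97 and 34.7 CPM in WT31_P5IV. It rose by 0.34 on the log2 scale (SE 0.038) without overlap. Cbx8 lies 5.04 kb from Cbx2 on chromosome 11 and measured 7.19 to 9.04 CPM in WT31 and 8.38 to 10.2 CPM in WT31_P5IV. The ranges overlapped, and its rise of 0.25 on the log2 scale (SE 0.076) did not pass without WT31 replicates 2 and 3 (0.19). Cbx6, 81.1 kb from Cbx7 on chromosome 15, measured 110.1 ± 2.88 CPM in WT31 and 114 ± 4.12 CPM in WT31_P5IV and stood at 0.046 on the log2 scale (SE 0.036), but at -0.13 on the TPM scale.

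Cbx6 took 62.3 ± 1.21% in WT31 and 55.5 ± 2.39% in WT31_P5IV of the chromobox TPM, Cbx2 23.5 ± 1.103% in WT31 and 26.7 ± 1.53% in WT31_P5IV and Cbx7 2.71 ± 0.660% in WT31 and 5.08 ± 0.844% in WT31_P5IV, and none of these overlapped. The sum over the 4 genes was 48.9 ± 2.05 TPM in WT31 and 50.1 ± 2.15 TPM in WT31_P5IV. Cdkn2a, the classic target of Cbx7 and Bmi1 and the INK4a locus of the genotype, measured 2.94 ± 0.225 CPM in WT31 and 3.13 ± 0.287 CPM in WT31_P5IV, with a log2 fold change of 0.090, SE 0.10, adjusted p = 0.446. Its neighbour Cdkn2b, which encodes the CDK inhibitor p15, fell, with a log2 fold change of -0.20, SE 0.063, adjusted p = 0.00992 in the same test. In these INK4a−/− lines the level of Cdkn2a cannot show whether repression by Cbx7 or Bmi1 changed.

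**Figure D3:**
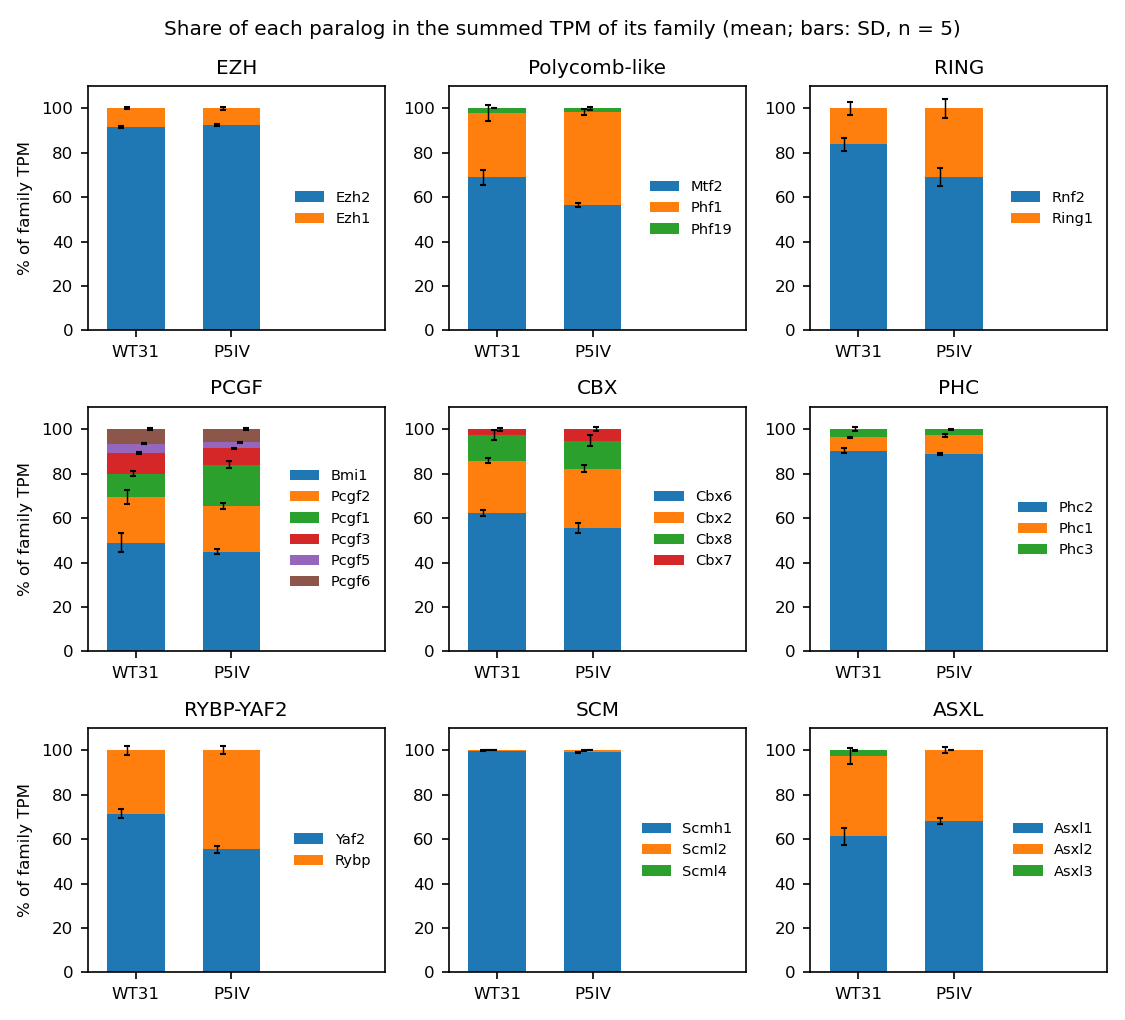
Share of each paralog in the summed TPM of its family, as the mean of 5 libraries with the SD as bars, for 9 families. The most abundant paralog was the same in both lines in each family, and the shares of Ring1, Phf1, Pcgf1 and Rybp were larger in WT31_P5IV without overlap.

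The polyhomeotic and sex comb on midleg proteins polymerise through their SAM domains and cluster canonical PRC1. Phc2, the most abundant of all members per length at 242 ± 9.98 TPM in WT31 and 211 ± 7.11 TPM in WT31_P5IV, stood at -0.011 on the log2 scale (SE 0.055), but at -0.20 and called lower on the TPM scale, and took 90.3 ± 1.15% in WT31 and 88.9 ± 0.626% in WT31_P5IV of the PHC TPM. On log2(TPM + 0.1) the median of all genes was itself shifted by -0.17. Phc1 measured 35.2, 34.9, 35.1, 34.1 and 34.2 CPM in WT31 and 44.6, 45.5, 47.2, 48.8 and 43.6 CPM in WT31_P5IV. The groups were well apart and Phc1 rose by 0.41 on the log2 scale (SE 0.039). Phc3 measured 59.0, 77.9, 76.9, 55.6 and 54.9 CPM in WT31 and 43.9, 48.6, 47.7, 45.7 and 51.4 CPM in WT31_P5IV. WT31 replicates 2 and 3 were the highest, and Phc3 fell by 0.45 on the log2 scale (SE 0.10), or -0.27 without them. Scmh1, which makes up nearly all SCM transcripts, measured 157, 144, 158, 154 and 162 CPM in WT31 and 106, 105, 102, 105 and 103 CPM in WT31_P5IV. All WT31_P5IV libraries lay together below WT31, and Scmh1 fell by 0.57 on the log2 scale (SE 0.037).

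Scml2 (ENSMUSG00000000037.17, GRCm38 chrX:161117193-161258213, + strand) showed the largest rise among the members. This gene is known for its role in the male germ line, where it prevents H2A ubiquitylation. It measured 0.0392, 0.114, 0.0784, 0.0786 and 0.119 CPM in WT31 replicates 1 to 5 and 1.43, 1.42, 1.21, 1.26 and 1.24 CPM in WT31_P5IV. Summed over the libraries this was 11 counts in WT31 and 157 counts in WT31_P5IV, a ratio of 15.3 (exact 95% interval 8.29 to 31.2, which covers counting error only). Scml2 stayed a minor transcript, with 0.0734 ± 0.0669 TPM in WT31 and 0.621 ± 0.247 TPM in WT31_P5IV, against 77.2 ± 3.19 TPM for Scmh1 in WT31_P5IV. The log2 fold change of Scml2 was 2.06 on log2(TPM + 0.1) and 0.58 on log2(TPM + 1), scales on which the added constant reduces the change of a low gene. None of its words of 31 bases occurred in another gene. On the X chromosome near Scml2, Gja6, Gm15262 and Rai2 had no more than 2 counts in any library. Nhs, 575083 bases after Scml2, was lower at 10.2 ± 1.13 CPM in WT31_P5IV against 25.5 ± 3.37 CPM in WT31 (log2 fold change of -1.33, SE 0.095, adjusted p = 1.43e-08 in edgeR's test).

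Variant PRC1 contains RYBP or YAF2 in place of a chromobox protein, and both stimulate the ligase. Yaf2 measured 75.6, 78.6, 76.9, 82.1 and 77.3 CPM in WT31 replicates 1 to 5 and 51.8, 50.1, 55.0, 57.2 and 49.6 CPM in WT31_P5IV. The WT31_P5IV libraries were all lower, and Yaf2 fell by 0.57 on the log2 scale (SE 0.044). Rybp measured 80.5, 89.2, 92.3, 77.6 and 78.1 CPM in WT31 and 81.9, 78.5, 81.2, 83.3 and 80.5 CPM in WT31_P5IV. The counts overlapped and stood at -0.044 on the log2 scale (SE 0.050), but the sign turned when transcript length was taken into account, with 0.41 under an effective-length offset and 0.26 on the TPM scale. The number of counts behind 1 TPM of Rybp was 72.4, 68.4, 67.8, 70.3 and 72.6 in WT31 and 53.9, 49.8, 52.1, 49.3 and 61.9 in WT31_P5IV, so that 1 TPM of Rybp rested on fewer counts in every WT31_P5IV library. For Yaf2 this number was between 25.6 and 28.8 in all libraries. Yaf2 accounted for 71.4 ± 2.01% in WT31 and 55.3 ± 1.70% in WT31_P5IV of their summed TPM, and the ratio of Yaf2 to Rybp was 2.51 ± 0.243 in WT31 and 1.24 ± 0.0880 in WT31_P5IV, without overlap. With counts divided by the length of all exons instead, the share of Yaf2 was 70.3% in WT31 and 62.2% in WT31_P5IV.

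Kdm2b and the MBT-domain genes showed small differences. Kdm2b, which brings PCGF1 complexes to CG islands, measured 46.0 to 51.6 CPM in WT31 and 50.9 to 55.8 CPM in WT31_P5IV and was called higher at 0.13 on the log2 scale (SE 0.041), but not without WT31 replicate 5 (0.092), and the TPM scale gave -0.0092. L3mbtl2, the MBT-domain subunit of PCGF6 complexes, was called higher at 0.11 on the log2 scale (SE 0.043), lost the call on leaving out any 1 of 7 libraries or WT31 replicates 2 and 3 together (0.051) and turned to -0.065 on the TPM scale. Of its words 15.0% occur in Chadl on the opposite strand, which rose (log2 fold change of 0.71, SE 0.067, adjusted p = 2.66e-07 in edgeR's test). Kdm2b shares 13.4% with Rnf34, which fell (log2 fold change of -0.26, SE 0.039, adjusted p = 3.10e-05). Sfmbt1, which also carries MBT repeats, fell by 0.17 on the log2 scale (SE 0.050) with overlapping ranges of 36.4 to 43.7 CPM in WT31 and 34.4 to 36.6 CPM in WT31_P5IV, and did not pass with the effective-length offset (-0.15). Without WT31 replicates 2 and 3 it stood at -0.11 and was still called.

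Of 23 further PRC1 partners 20 were tested, 13 fell, 2 rose and 5 did not pass. Their median log2 fold change was -0.18, and 75% were called, against 68.5% of all tested genes. Named by size, Samd11, a retinal SAM-domain partner, rose from 0.297 ± 0.153 to 1.15 ± 0.155 CPM (log2 fold change of 1.94, SE 0.27, adjusted p = 1.60e-05 by the edgeR test). Max, the DNA-binding partner of MGA, fell (log2 fold change of -0.47, SE 0.043, adjusted p = 1.80e-07), as did the deacetylase gene Hdac2 (log2 fold change of -0.45, SE 0.039, adjusted p = 9.86e-08).

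**Figure D4:**
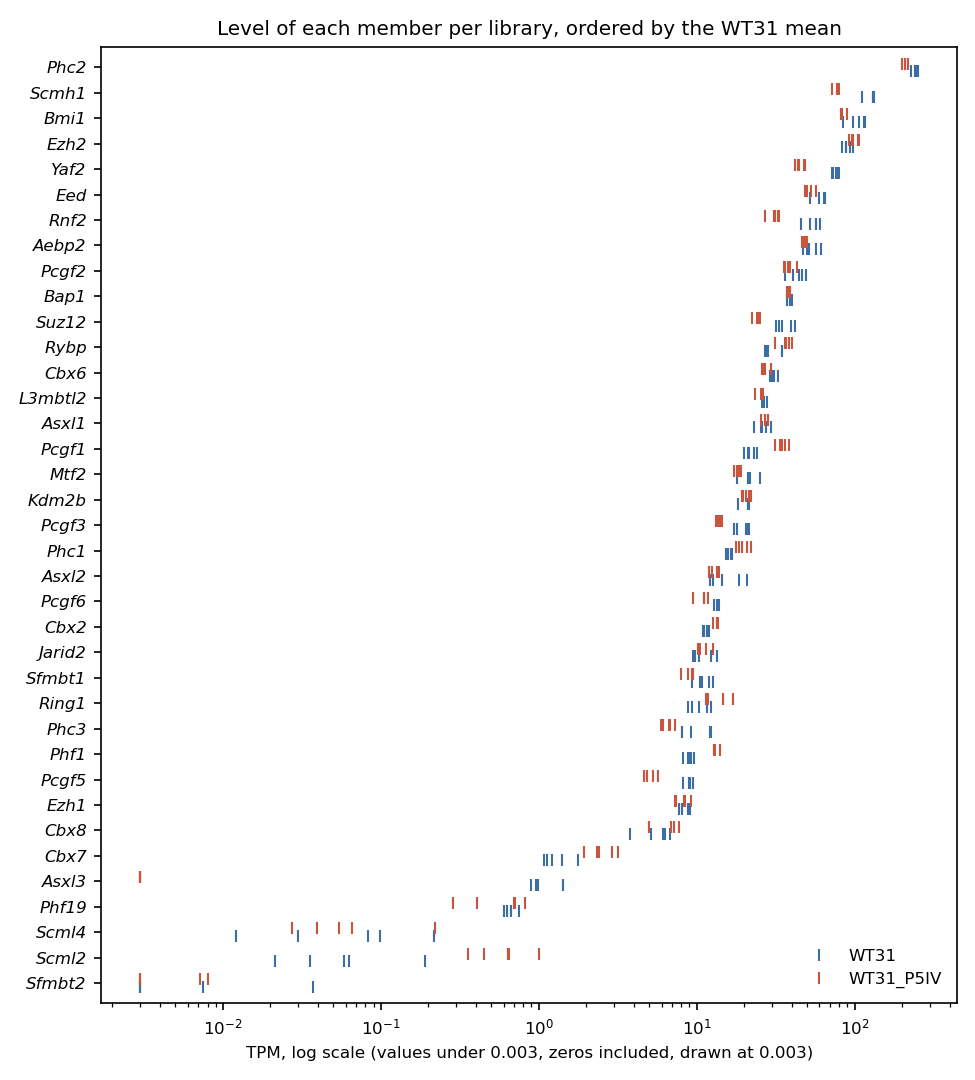
TPM of each member in every library on a log axis, ordered by the WT31 mean, with values under 0.003 TPM drawn at 0.003. Phc2 and Scmh1 lie at the top in WT31, and Asxl3, Scml2, Scml4, Phf19 and Sfmbt2 lie near or under 1 TPM.

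In the BAP1 complex the catalytic subunit was nearly level, and the ASXL gene with the lowest TPM was at 0 in WT31_P5IV. Bap1, the H2A deubiquitylase, measured 79.4, 77.2, 77.3, 79.1 and 82.3 CPM in WT31 and 84.5, 84.9, 83.9, 81.9 and 81.9 CPM in WT31_P5IV. The groups overlapped and the call of 0.078 on the log2 scale (SE 0.033) ended on leaving out any single library, with 0.057 to 0.080, or WT31 replicates 2 and 3 together (0.041), and the sign turned on the TPM scale (-0.011). The ASXL proteins activate BAP1 through their DEUBAD domain. Asxl1, whose truncation is frequent in myeloid malignancies, measured 108, 123, 119, 112 and 106 CPM in WT31 and 127, 137, 133, 122 and 126 CPM in WT31_P5IV. It rose by 0.19 on the log2 scale (SE 0.048) with an overlap between WT31 replicate 2 and WT31_P5IV replicate 4, but did not pass on the TPM scale (0.056). Asxl2 measured 63.4, 76.0, 73.5, 56.5 and 54.4 CPM in WT31 and 61.6, 61.0, 62.4, 57.3 and 62.0 CPM in WT31_P5IV and stood at -0.090 on the log2 scale (SE 0.080), or 0.051 without WT31 replicates 2 and 3, which were the highest.

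Asxl3 (ENSMUSG00000045215.17, GRCm38 chr18:22344883-22530227, + strand), the paralog mainly expressed in the nervous system, measured 7.41, 10.4, 10.4, 7.31 and 6.89 CPM in WT31 replicates 1 to 5. These values came from 174 to 275 counts per library. In WT31_P5IV all 5 libraries were at 0 counts. Against a limit of 3 counts per library Asxl3 was at least 67.8-fold lower in WT31_P5IV. Without WT31 replicates 2 and 3, the highest libraries, the remaining WT31 values were still 6.89 to 7.41 CPM. Of the ASXL TPM it made up 2.604 ± 0.258% in WT31, beside 61.4 ± 3.82% in WT31 and 68.2 ± 1.30% in WT31_P5IV for Asxl1, which did not overlap. The nearest genes on chromosome 18, Ccdc178 and Nol4, had 0 to 1 count in every library, as had Klhl14. Dtna had at most 9 counts. Garem1 and Mapre2, 1044745 bases before and 1222106 bases after Asxl3, were still measured and were lower, with a log2 fold change of -0.32, SE 0.084, adjusted p = 0.00362 for the former and a log2 fold change of -0.46, SE 0.042, adjusted p = 1.86e-07 for the latter in edgeR's test.

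Of 10 BAP1 partners and H2A deubiquitylases 5 fell, 3 rose and 2 did not pass. The called share was 80%, against 68.5% of all tested genes. Usp16, another H2A deubiquitylase, fell from 53.8 ± 3.49 to 30.9 ± 1.47 CPM (log2 fold change of -0.80, SE 0.050, adjusted p = 4.00e-09 by the edgeR test). Ogt, the glycosyltransferase bound to BAP1, rose (log2 fold change of 0.47, SE 0.077, adjusted p = 6.90e-05), and Mbd5, an adaptor of the complex, fell (log2 fold change of -0.45, SE 0.080, adjusted p = 1.80e-04).

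Genes that act against Polycomb changed in both directions as well. Trithorax complexes, which methylate H3K4, had 6 of 12 genes higher and 2 lower, with the methyltransferases Kmt2a (log2 fold change of 0.55, SE 0.12, adjusted p = 7.10e-04) and Kmt2b (log2 fold change of 0.32, SE 0.053, adjusted p = 7.06e-05) and the adaptor Paxip1 (log2 fold change of 0.48, SE 0.037, adjusted p = 3.78e-08) named by size in edgeR's test. Of 15 SWI/SNF remodeller subunits 8 fell and 1 rose. These included the ATPase gene Smarca2 (log2 fold change of -0.68, SE 0.047, adjusted p = 1.06e-08), the core subunit Smarcc1 (log2 fold change of -0.35, SE 0.035, adjusted p = 5.91e-07) and Brd7 (log2 fold change of -0.40, SE 0.032, adjusted p = 5.70e-08). Of the H3K27 demethylases Kdm6b fell (log2 fold change of -0.16, SE 0.037, adjusted p = 0.00161) and Kdm6a did not pass (log2 fold change of -0.093, SE 0.063, adjusted p = 0.203). Of 5 H3K36 methyltransferases 2 fell, Nsd1 (log2 fold change of -0.35, SE 0.081, adjusted p = 0.00127) and Nsd3 (log2 fold change of -0.20, SE 0.058, adjusted p = 0.00609). Over all 73 partner and opposing genes 69 were tested, 34 fell and 12 rose, with a median of -0.11 beside 0.010 over all genes. The called share was 66.7%, against 68.5% of all tested genes (34.6% higher and 33.9% lower). For the Trithorax list it was also 66.7%, for SWI/SNF 60%, for the H3K27 demethylases 50% and for the H3K36 methyltransferases 40%.

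Hox genes are the classic Polycomb targets. Of 39 Hox genes 11 were tested, 9 of the Hoxa cluster with Hoxb8 and Hoxb9, and 11 others were at 0 in all libraries. In edgeR's test 6 rose and 4 fell. The called share was 90.9%, against 68.5% of all tested genes. Hoxa10 rose from 1.06 ± 0.246 to 9.10 ± 0.250 CPM (log2 fold change of 3.09, SE 0.11, adjusted p = 1.27e-11). Hoxa9 had 10 counts in all WT31 libraries together and 154 in WT31_P5IV, a ratio of 16.5 (exact 95% interval 8.71 to 35.002, counting error only). Hoxa2 (log2 fold change of 1.90, SE 0.19, adjusted p = 5.71e-07), Hoxa3 (log2 fold change of 1.45, SE 0.14, adjusted p = 2.94e-07) and Hoxa5 (log2 fold change of 1.18, SE 0.10, adjusted p = 1.24e-07) also rose past 2-fold. Within the same cluster Hoxa7 fell from 3.31 ± 0.471 to 1.15 ± 0.186 CPM (log2 fold change of -1.53, SE 0.15, adjusted p = 3.10e-07). Hoxb9, by far the most abundant Hox gene, fell from 180.7 ± 5.00 to 143.2 ± 9.41 CPM (log2 fold change of -0.34, SE 0.045, adjusted p = 9.84e-06). A relation between these genes and the Polycomb subunits was not tested.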

How the data were processed

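Per the labels and the study's methods, the authors trimmed reads with Trim Galore 0.6.4 and obtained estimated counts with kallisto against GRCm38.p6. The kallisto version differs between the study's methods and the submitters' processing notes and is not given here. The deposited estimated counts and the deposited TPM values, which are scaled by transcript length and library total, are given per gene for each of 10 libraries. The annotation release and the strand setting are not given in the sources used here. Identifiers were matched without their version to GENCODE M21 (55144 of 55385).

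Estimated counts were rounded. The groups were compared with edgeR 4.0.16 in R 4.3.3 (filterByExpr, TMM scaling, quasi-likelihood test) over 13620 genes, with Benjamini-Hochberg adjustment and a threshold of 0.05. Standard errors come from the unshrunk coefficient and the F statistic. The scripts were tested on simulated data. The 3-count limit of detection was 0.114 to 0.129 CPM. Shares of paralogs were computed from TPM per library. Shared words are sequences of 31 bases of GENCODE transcripts. Alternatives were limma 3.58.1, DESeq2 1.42.0, other scalings and filters, an effective-length offset, TPM scales and leaving out libraries.

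The members and lists were chosen with earlier results of these data known. All members are named. Of other pathway lists, the 3 called genes with the largest change and any past 2-fold are named, of marker lists the most abundant gene and defining markers at or near 0, with other markers named after their values were seen, and other genes only as neighbours, overlapping genes or known targets of the members. Replicate numbers were taken from the titles. Some genes of the lists and neighbourhoods are not reported here.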

Additional observations from a re-analysis of the deposited data

Results flagged for a closer look

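In 73 groups of 5 libraries, the CPM of each member in each line, 5 held a library whose gap to its nearest neighbour exceeded 0.71 of the whole range, the 95% limit of Dixon's test. By chance about 5% of such groups are expected to do so, and all 5 were in WT31_P5IV. Replicate 4 was high for Pcgf2, with 50.2 CPM against 43.0 to 43.9 CPM in the others, and for Pcgf3, with 76.6 CPM against 71.7 to 72.9 CPM. The same replicate was low for Asxl2, with 57.3 CPM against 61.0 to 62.4 CPM. Replicate 5 was low for Mtf2, with 37.5 CPM against 39.0 to 39.3 CPM, and high for Scml4, with 0.289 CPM against 0.0402 to 0.0842 CPM, which is 7 counts against 1 to 2.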

How the results depend on the processing

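Depth limits statements on Scml2, Scml4, Sfmbt2, Phf19 and on Asxl3 in WT31_P5IV, and calls of under about 0.15 on the log2 scale (Bap1, L3mbtl2, Kdm2b, Ezh2) depended on scaling, filter or single libraries. The call of Bmi1 ended only without WT31 replicates 2 and 3. Calls of Eed, Mtf2 and Sfmbt1 ended with the effective-length offset, that of Asxl1 in limma voom and on the TPM scales, and that of Cbx8 under 7 settings. The cause of the changes below was not tested unless the setting itself gives it. Replicate numbers did not pair the libraries, with correlations of same-numbered libraries from -0.096 to 0.178. With the replicate number as a block 9380 genes were called, against 9327, and 13 members were higher and 12 lower. Under the block Bap1 was no longer called (0.078) and Jarid2 was (0.13).

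Members called higher numbered 8 without scaling beyond library totals, 7 in limma voom without scaling or filter, the procedure closest to the study's, and 8 with every gene of at least 1 count, against 13. Members past a 2-fold change numbered 1 with at least 10 counts in every library, a filter that Scml2 and Asxl3 do not pass, 2 on log2(TPM + 0.1) and 1 on log2(TPM + 1), against 3. Over all genes 1957, 2319, 698 and 465 passed the 2-fold filter in limma voom, with every gene of at least 1 count, with at least 10 counts in every library and on log2(TPM + 1), against 1240. Partner genes called higher numbered 5 on either TPM scale, against 12. Of all calls 50.5% were higher in the main comparison, 32.9% on log2(TPM + 0.1) and 32.8% on log2(TPM + 1), where the median of all genes shifted by -0.17 and -0.16.

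The sign turned on log2(TPM + 0.1) and log2(TPM + 1) for Cbx6 (-0.13 on both), Kdm2b (-0.0092 and -0.0088), L3mbtl2 (-0.065 and -0.062), Bap1 (-0.011 on both) and Rybp (0.26 on both, and 0.41 with the effective-length offset). It also turned, without a call, for Ezh1 (-0.068 and -0.061), Jarid2 (-0.00062 and -0.0012) and Aebp2 (-0.14 and -0.14, and -0.0033 with the offset).

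With counts divided by exon-union length in place of TPM, shares in WT31 and WT31_P5IV were 87.0 and 87.6% for Ezh2, 64.9 and 49.7% for Mtf2, 32.8 and 48.7% for Phf1, 52.2 and 49.9% for Bmi1, 7.88 and 13.7% for Pcgf1, 1.67 and 1.05% for Pcgf5, 53.5 and 47.9% for Cbx6, 33.2 and 36.5% for Cbx2, 2.14 and 4.06% for Cbx7, 82.2 and 80.6% for Phc2, 6.46 and 4.64% for Phc3, 70.3 and 62.2% for Yaf2, 99.9 and 98.3% for Scmh1 and 76.9 and 81.9% for Asxl1.

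Leaving out each library in turn gave 8965 to 9444 called genes, 1265 to 1336 past 2-fold, 11 to 13 members higher, 12 to 13 lower and 3 past 2-fold. Leaving out WT31 replicates 2 and 3, chosen after the data were seen, gave 11 members higher, 12 lower and 23 without overlap.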
